A study of Mus musculus with 26 samples.

Results

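The epithelium studied here was labelled as an induced knockout of SMAD4, the partner through which both the BMP and the TGF-beta branches of signalling reach the genome. It was collected 6 days after the first of 4 consecutive daily injections, and SMAD4 protein was not measured in the data used here. The comparison set 2 libraries labelled SMAD4 iKO against 2 control libraries, 4 of the 26 libraries of the study, and was chosen as the whole of the table in which those libraries were deposited. All 4 came from mouse proximal small intestine, as whole preparations of the epithelium, with polyadenylated RNA sequenced as paired reads. The iKO animals carried Villin-CreERT2, a tamoxifen-activated recombinase driven by the villin promoter and so active in intestinal epithelial cells, and were given tamoxifen. The control libraries have the genotype label control and the treatment label oil, and the protocol pairs oil with Cre-positive littermates matched for sex. Every iKO animal had thus received tamoxifen and was meant to have active Cre while no control was, so SMAD4 deletion, tamoxifen and Cre activity cannot be told apart in any value below. The deleted allele and the age of the animals are not given in the sources used here. Nothing in the labels says how many animals stand behind a library, so p-values measure the spread between these libraries.

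BMP ligands are made mainly by the mesenchyme under the villus and act on receptors of the epithelium, which phosphorylate SMAD1, SMAD5 and SMAD9. TGF-beta and activin receptors phosphorylate SMAD2 and SMAD3 instead. Either kind of receptor SMAD binds SMAD4 and enters the nucleus, where the complex switches genes on or off, among them the Id genes and the inhibitory Smad6 and Smad7 that feed back on the pathway. In the small intestine BMP signalling is strongest on the villus and low in the crypt, and enterocytes change the genes they express as they climb the villus.

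Of 17112 genes in the table, 12202 reached 1 FPKM (fragments, scaled to gene length and library size) in at least 2 libraries and were tested on log2(FPKM + 0.5). A gene at that level in 1 group alone was tested through that group, which largely fixed its direction. Changes are given as the log2 difference, iKO minus control, with its standard error, and on this scale the change of genes with an FPKM near 0 is understated. In SMAD4 iKO epithelium 156 genes rose (1.28% of those tested) and 261 fell (2.14%) at a limma adjusted p under 0.05, of which 144 and 222 changed by more than 2-fold. The FPKM of all 417 called genes did not overlap between the groups. Without regard to the test, 29.1% of tested genes were higher without overlap and 23.8% lower without overlap. Counts of list members without overlap given below are to be read beside these shares. At an unadjusted p under 0.05 there were 2539 genes. The plot of all tested genes shows falls and rises at every level of expression.

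**Figure D1:**
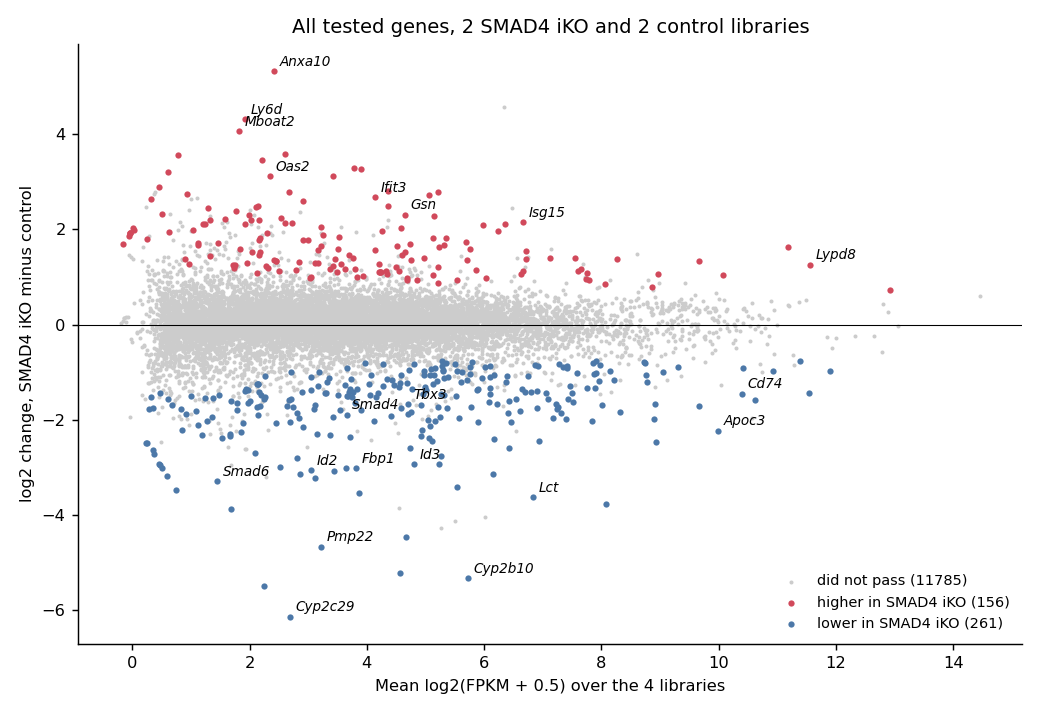
Each point is a tested gene, placed by its mean log2(FPKM + 0.5) over the 4 libraries (x axis) and its log2 change, SMAD4 iKO minus control (y axis). The 156 genes that rose are red, the 261 that fell are blue, and the named genes reach from -6.13 (Cyp2c29) to 5.33 (Anxa10).

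The counts rest on 2 libraries a group. Without control library 1 the test called 30 genes higher and 38 lower, and without control library 2 it called 37 and 39. Without iKO library 1 it called 0 higher and 11 lower, and without iKO library 2 it called 0 and 2. All 417 genes kept their direction in each of these 4 fits and in each of the 2 equal-numbered pairs of libraries. That outcome was fixed by the lack of overlap between their groups, so it does not show how far the calls hold. In the gene lists other than xenobiotic metabolism, no member passed without iKO library 1 or without iKO library 2. Correlations across genes were 0.969 between the controls, 0.972 between the iKO libraries and 0.938 to 0.955 between groups. Paneth cell genes set the number 2 libraries apart in both groups: the 20 tested markers summed to 39528 and 3187 FPKM in the controls and 15765 and 3867 in the iKO libraries. All 13 epithelial markers were detected, while markers of B cells, myeloid cells, mesenchyme, endothelium, nerve and red blood cells left 1 to 5 tested genes each, and all members of each of these lists in the table, untested ones included, summed to at most 12.3 FPKM in a library.

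Smad4 itself was read first. It stood at 24.9 and 22.9 FPKM in the controls and 7.19 and 5.11 in the iKO libraries (log2 -1.89 ± 0.20, limma adjusted p = 0.018). The transcript was low in both iKO libraries but not at 0, and a gene-level value includes any exons outside the deleted part. The receptor SMADs gave values near equality: Smad1 had 21.9 and 25.9 FPKM in the controls and 27.4 and 21.4 in the iKO libraries, and Smad5 had 5.98 and 5.81 and 5.88 and 5.15. Smad2 and Smad3, the carriers of TGF-beta and activin signals, had log2 changes of 0.12 ± 0.17 and -0.32 ± 0.21, and none of these 4 passed the test.

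Among receptors, Tgfbr2, the type II receptor that binds TGF-beta, rose. Its FPKM was 4.99 and 5.05 in the controls and 14 and 12.3 in the iKO libraries (log2 1.31 ± 0.15, limma adjusted p = 0.023). Its partner Tgfbr1 did not pass, at 5.62 and 5.07 and 5.55 and 5.25 FPKM. The BMP receptor gene Bmpr1a was at 26.5 and 19.8 FPKM in the controls and 38.4 and 31.3 in the iKO libraries (log2 0.59 ± 0.20, adjusted p = 0.192). The remaining tested receptors, Bmpr2, Acvr1, Acvr1b, Acvr2a and Acvr2b, lay between -0.18 and 0.18 on the log2 scale and did not pass. In the list of SMADs and receptors as a whole, 1 of 15 tested genes rose and 3 fell, with a median of 0.01 beside 0.03 over all tested genes and of -0.11 without control 2 and -0.11 without iKO 1. The 3 were Smad4, the target of the deletion, and Smad6 and Smad7, which are counted again among the BMP response genes below. No receptor fell. Of 9 tested ligands and extracellular inhibitors, Bmp3, an atypical ligand that dampens BMP signalling, rose from 5.90 and 5.23 FPKM to 27.8 and 16.04 (log2 1.84 ± 0.28, limma adjusted p = 0.041). Bmp8a fell from 8.71 and 6.72 to 2.82 and 1.79 FPKM (log2 -1.57 ± 0.26, limma adjusted p = 0.046), and the other 7 did not pass.

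Genes known to respond to BMP fell. Of 10 tested BMP response genes 7 fell and 0 rose, with a median of -1.52. The Id genes encode helix-loop-helix proteins that bind and disable DNA-binding partners. Id3 stood at 68.6 and 85.4 FPKM in the controls and 9.43 and 9.79 in the iKO libraries (log2 -2.93 ± 0.16, limma adjusted p = 0.011). Id1 stood at 72.3 and 62.4 and 19.8 and 20.1 FPKM (log2 -1.72 ± 0.14, limma adjusted p = 0.014). Id2 stood at 37.05 and 14.6 and 2.24 and 2.49 FPKM (log2 -3.05 ± 0.43, limma adjusted p = 0.035). The 2 iKO values of each Id gene lay close together, and the controls of Id2 stood further apart than those of Id1 and Id3. Id4, hardly detected in the controls, did not pass, at 0.459 and 0.357 and 1.13 and 1.33 FPKM.

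The feedback inhibitors fell as well, Smad6 the further. Smad6, which acts mainly on BMP receptors, was at 6.09 and 10.54 FPKM in the controls and 0.52 and 0.247 in the iKO libraries (log2 -3.29 ± 0.33, limma adjusted p = 0.017). Smad7, which acts on both branches, was at 12.3 and 12.4 and 6.14 and 5.73 FPKM (log2 -1.0 ± 0.15, limma adjusted p = 0.037). Of the villus transcription factors in the list, Tbx3 was at 44.1 and 47.3 FPKM in the controls and 13.4 and 14.7 in the iKO libraries (log2 -1.67 ± 0.14, limma adjusted p = 0.014), and Klf4 at 93.1 and 94.7 and 40.97 and 31.3 (log2 -1.38 ± 0.17, limma adjusted p = 0.025). Hes1 (log2 0.29 ± 0.13) and Cdkn1a (log2 -0.02 ± 0.14) did not pass. Without control library 1 or control library 2 the count of members that fell was 3, and without iKO library 1 or iKO library 2 it was 0, with medians from -1.59 to -1.46. Without the filter on low values, which adds members hardly detected in any library, the list median was -0.27.

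The promoters of Id2 and Id3 are shown because SMAD complexes are known to bind a GC-rich site, GGCGCC, and a shorter box, CAGAC. Both are RefSeq sequences of build GRCm38.p6, the 250 bases before the annotated start, read 5′ to 3′ on the gene's strand. Capitals mark GGCGCC in Id2 (chr12:25096093-25096342, minus strand) and CAGAC or its reverse complement in Id3 (chr4:136143572-136143821, plus strand).
Id2: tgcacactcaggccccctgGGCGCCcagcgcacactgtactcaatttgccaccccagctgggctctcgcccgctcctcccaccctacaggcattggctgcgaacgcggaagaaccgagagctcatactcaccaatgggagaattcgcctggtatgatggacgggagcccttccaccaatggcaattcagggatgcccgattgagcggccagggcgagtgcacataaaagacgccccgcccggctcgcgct
Id3: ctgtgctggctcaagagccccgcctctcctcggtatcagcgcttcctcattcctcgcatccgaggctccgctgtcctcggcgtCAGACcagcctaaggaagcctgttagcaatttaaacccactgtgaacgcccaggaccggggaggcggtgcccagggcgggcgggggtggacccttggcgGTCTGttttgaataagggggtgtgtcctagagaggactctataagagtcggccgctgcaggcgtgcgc
The Id2 window holds 1 GGCGCC, and the Id3 window holds CAGAC once on each strand. Of the 7 BMP response genes that fell, 4 had a promoter, and 1 of these held GGCGCC and 1 held CAGAC, while Smad6 and Klf4 held neither. Among the members that did not pass, Id4 held GGCGCC and Cdkn1a held CAGAC. Such matches are common. Over windows from 250 bases before to 50 after the start, searched on both strands, GGCGCC was in 13.4% of the 27025 genes with a promoter, in 23.6% of the tested genes, in 16.8% of the genes that fell and in 14.2% of those that rose. CAGAC was in 53.2% of all genes, in 52.1% of the tested genes, in 62.4% of those that fell and in 55.8% of those that rose. Promoters were matched for 197 of the 261 genes that fell and 113 of the 156 that rose.

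**Figure D2:**
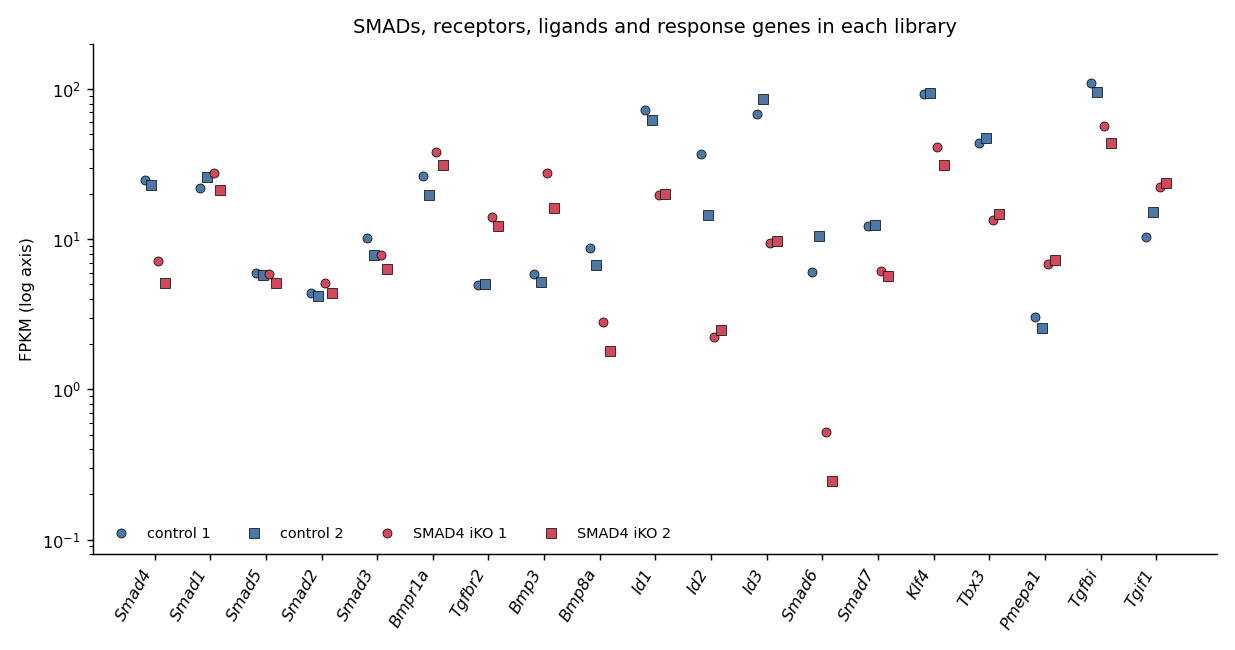
FPKM on a log axis (y) of genes of the pathway (x) in each library, with controls blue, SMAD4 iKO red, circles for replicate 1 and squares for replicate 2. Id1, Id2, Id3, Smad6, Smad7, Klf4 and Tbx3 are lower in both iKO libraries, with Id3 at 68.6 and 85.4 in the controls and 9.43 and 9.79 in the iKO libraries, while Tgfbr2, Bmp3 and Pmepa1 are higher.

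The TGF-beta and activin response list did not move in a single direction. Of 18 tested members 1 rose and 1 fell, and the median was 0.02, which was -0.10 without control 1 and 0.13 without control 2. Pmepa1, an inhibitor of receptor SMADs that TGF-beta induces in many cells, rose from 3.05 and 2.58 FPKM to 6.83 and 7.27 (log2 1.19 ± 0.17, limma adjusted p = 0.037), and the member that fell was Smad7. Tgfbi, a secreted matrix protein, stood at 109 and 95.1 FPKM in the controls and 56.9 and 43.8 in the iKO libraries without passing (log2 -1.02 ± 0.18, limma adjusted p = 0.054). Tgif1, a corepressor that binds SMADs, was at 10.3 and 15.1 and 22.1 and 23.6 FPKM (log2 0.85 ± 0.21, adjusted p = 0.118). Neither pair of groups overlapped. The remaining members that did not pass lay between -0.57 (Nedd9, a docking protein) and 0.79 (Bhlhe40, a clock-related repressor). Of 21 tested intracellular regulators of SMAD signalling, Pmepa1 alone passed.

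Transcription factors of the villus fell in part. Of 43 tested, 5 fell and 0 rose, with a median of -0.18. Besides Tbx3 and Klf4, these were Maf, Ppard and Mxd1. Maf, a basic leucine zipper factor of mid-villus enterocytes, stood at 56.2 and 75.03 FPKM in the controls and 15.8 and 16.1 in the iKO libraries (log2 -1.99 ± 0.18, limma adjusted p = 0.016). The nuclear receptor gene Ppard was at 71.4 and 83.7 and 35.3 and 33.2 FPKM (log2 -1.16 ± 0.14), and Mxd1, whose product competes with MYC for its partner MAX, at 158 and 152 and 80.2 and 66.4 (log2 -1.08 ± 0.14). The general enterocyte factors Cdx2 (log2 -0.44 ± 0.14) and Gata4 (log2 -0.31 ± 0.13) did not pass. The vitamin D receptor gene Vdr was at 144 and 139 FPKM and 81.02 and 59.4 (log2 -1.02 ± 0.18, adjusted p = 0.057). With each of the 4 libraries left out in turn the number of these factors that fell was 1, 1, 0 and 0, in the order control 1, control 2, iKO 1, iKO 2, and the median was -0.32 without iKO 1 and -0.08 without iKO 2.

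Genes of absorption fell in SMAD4 iKO epithelium. All 19 tested transporters and brush border peptidases for amino acids and peptides had a negative change, 17 were lower without overlap, 9 fell and 0 rose, and the median was -1.20. Slc36a1, a proton-coupled amino acid transporter, stood at 71.4 and 80.3 FPKM in the controls and 14.97 and 13.3 in the iKO libraries (log2 -2.38 ± 0.14, limma adjusted p = 0.011). Slc43a2, which releases neutral amino acids to the blood side, was at 116 and 122 and 42.97 and 33.8 (log2 -1.63 ± 0.16). Slc6a20a, the proline carrier, was at 136 and 190.3 and 44.1 and 44.3 (log2 -1.85 ± 0.19). Mep1a, the alpha subunit of the peptidase meprin, was at 45.8 and 40.9 and 14.2 and 11.1 (log2 -1.74 ± 0.17). The peptide transporter gene Slc15a1, Slc7a15, Slc6a19, Dpp4 and Anpep made up the 9, with changes from -1.75 to -0.92. Without control 1, control 2, iKO 1 or iKO 2 the number that fell was 2, 1, 0 and 0, and the median stayed between -1.52 and -0.93.

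Carbohydrate genes fell unevenly. Of 16 tested, 5 fell and 1 rose, with a median of -1.12. Lct, the lactase of the brush border, stood at 469.7 and 346 FPKM in the controls and 38.4 and 26.7 in the iKO libraries (log2 -3.63 ± 0.24, limma adjusted p = 0.011). Fbp1, the fructose bisphosphatase of gluconeogenesis, was at 36.7 and 42.8 and 4.53 and 4.37 (log2 -3.02 ± 0.15, limma adjusted p = 0.011). In both genes the iKO libraries lay far under the controls. The hexose carrier Slc2a7 (log2 -1.88 ± 0.19), trehalase, Treh (log2 -1.34 ± 0.14), and ketohexokinase, Khk (log2 -1.03 ± 0.13), fell too. The member that rose was Slc2a1, the glucose transporter of most proliferating cells, from 7.17 and 7.33 to 19.4 and 22.7 FPKM (log2 1.47 ± 0.15, limma adjusted p = 0.018). The main intestinal sugar transporters did not pass and their controls differed from each other: Slc5a1 stood at 1312 and 684 FPKM in the controls and 580.4 and 351 in the iKO libraries, and Slc2a2 at 308 and 146 and 122 and 72.5. Without control 1, control 2, iKO 1 and iKO 2, 2, 4, 0 and 0 members fell, and without control 1 the median was -0.74.

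Lipid genes moved in both directions. Of 26 tested, 4 fell and 1 rose, with a median of -0.30. Apoc3, an apolipoprotein that slows lipoprotein clearance, stood at 2536 and 1918 FPKM in the controls and 431 and 510.0 in the iKO libraries (log2 -2.23 ± 0.18, limma adjusted p = 0.014). Npc1l1, through which cholesterol is taken up, was at 272 and 261 and 90.7 and 77.9 (log2 -1.66 ± 0.13), and the fatty acid receptor Cd36 at 44.1 and 37.7 and 13.1 and 8.20 (log2 -1.93 ± 0.25). The 2 abundant fatty acid binding proteins parted: Fabp2 fell from 3509 and 3437 to 1958 and 2136 FPKM (log2 -0.76 ± 0.12, limma adjusted p = 0.041), and Fabp1 rose from 5963 and 6101 to 9594 and 10445 (log2 0.73 ± 0.12, limma adjusted p = 0.045). Apoa4 did not pass (log2 -0.57 ± 0.15). Without control 1, control 2, iKO 1 and iKO 2, 1, 1, 0 and 0 members fell.

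Detoxifying enzymes held the largest called fall of the comparison, that of Cyp2c29. Of 37 tested genes of xenobiotic metabolism 16 fell and 0 rose, 27 were lower without overlap, and the median was -1.02. Cyp2b10, a cytochrome P450 induced by foreign compounds, stood at 326 and 343 FPKM in the controls and 8.42 and 7.33 in the iKO libraries (log2 -5.33 ± 0.14), and its limma adjusted p of 0.00153 was the smallest of all genes. Cyp2c29 was at 51.2 and 55.7 and 0.122 and 0.445 (log2 -6.13 ± 0.24), Cyp2c66 at 144.6 and 156 and 17.7 and 10.6 (log2 -3.41 ± 0.25). Cyp3a11, the main drug-oxidising P450 of the gut, was at 927 and 1088 and 128 and 41.4 (log2 -3.77 ± 0.52, limma adjusted p = 0.033). P450 genes of the same family have close copies among which reads could be split, so the value of a single Cyp2c or Cyp3a gene is uncertain. The list kept calls with each library left out: 6, 4, 4 and 2 members fell without control 1, control 2, iKO 1 and iKO 2.

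Genes of the villus tip and of the ileum followed the same line in part. Of 24 villus tip genes 7 fell and 1 rose, and those that fell included the enzymes and carriers of purine and nucleotide salvage. Ada, adenosine deaminase, stood at 551 and 656 FPKM in the controls and 161 and 176 in the iKO libraries (log2 -1.83 ± 0.14, limma adjusted p = 0.012). Nt5e, which makes adenosine from AMP at the cell surface, was at 7.32 and 5.78 and 0.882 and 0.983 (log2 -2.29 ± 0.21), and Enpp3, a nucleotide phosphodiesterase, at 345 and 323 and 90.9 and 77.9 (log2 -1.98 ± 0.14). The nucleoside importer Slc28a1 was at 23.9 and 40.6 and 3.77 and 2.79 (log2 -3.08 ± 0.29), and Pmp22, a membrane protein of cell junctions, at 58.05 and 36.97 and 2.63 and 0.587 (log2 -4.67 ± 0.53). S100a11 rose (log2 1.39 ± 0.16), and the median of the 24 was -0.24, and -0.39 without control 2. Without control 1, control 2, iKO 1 and iKO 2, 3, 3, 0 and 0 of the 24 fell. Of 12 bile acid and ileal genes 3 fell: Cubn and Amn, the parts of the receptor for vitamin B12 with intrinsic factor (log2 -3.88 ± 0.62 and -0.83 ± 0.13), and Slc51a, which exports bile acids (log2 -0.84 ± 0.12). Nr0b2, the bile acid induced repressor SHP, rose (log2 1.17 ± 0.19). In the retinoid list Rdh7 and Lrat, which oxidise and store retinol, fell (log2 -1.94 ± 0.13 and -1.90 ± 0.31) and Ttr rose from a low level (log2 1.28 ± 0.22), of 14 tested.

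Several of the largest falls lay outside the lists. Slc5a4a, a glucose-sensing relative of the sodium-glucose transporter, stood at 46.98 and 20.9 FPKM in the controls and 0.241 and 0.167 in the iKO libraries (log2 -5.50 ± 0.39), with a close neighbour copy that could share its reads. Enpp7, the alkaline sphingomyelinase of the brush border, was at 137 and 152 and 7.31 and 1.44 (log2 -5.22 ± 0.64), and Clca4a at 134 and 105 and 10.54 and 2.12 (log2 -4.47 ± 0.67). Dio1, the deiodinase that activates thyroid hormone, was at 55.3 and 44.5 and 4.41 and 3.24 (log2 -3.55 ± 0.21). For Enpp7 and Clca4a the 2 iKO libraries differed widely from each other, and both lay under every control. Mir142b, a microRNA gene row, was listed at 0 in both iKO libraries and at 4.35 and 5.95 FPKM in the controls, while Mir7026 was listed at 0 in both controls and at 6.91 and 4.24 FPKM in the iKO libraries, and no fold is given for either. Rows of microRNA and small nucleolar RNA genes made up 18 of the 417 calls, and a library of polyadenylated RNA measures them through their host or precursor transcripts.

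**Figure D3:**
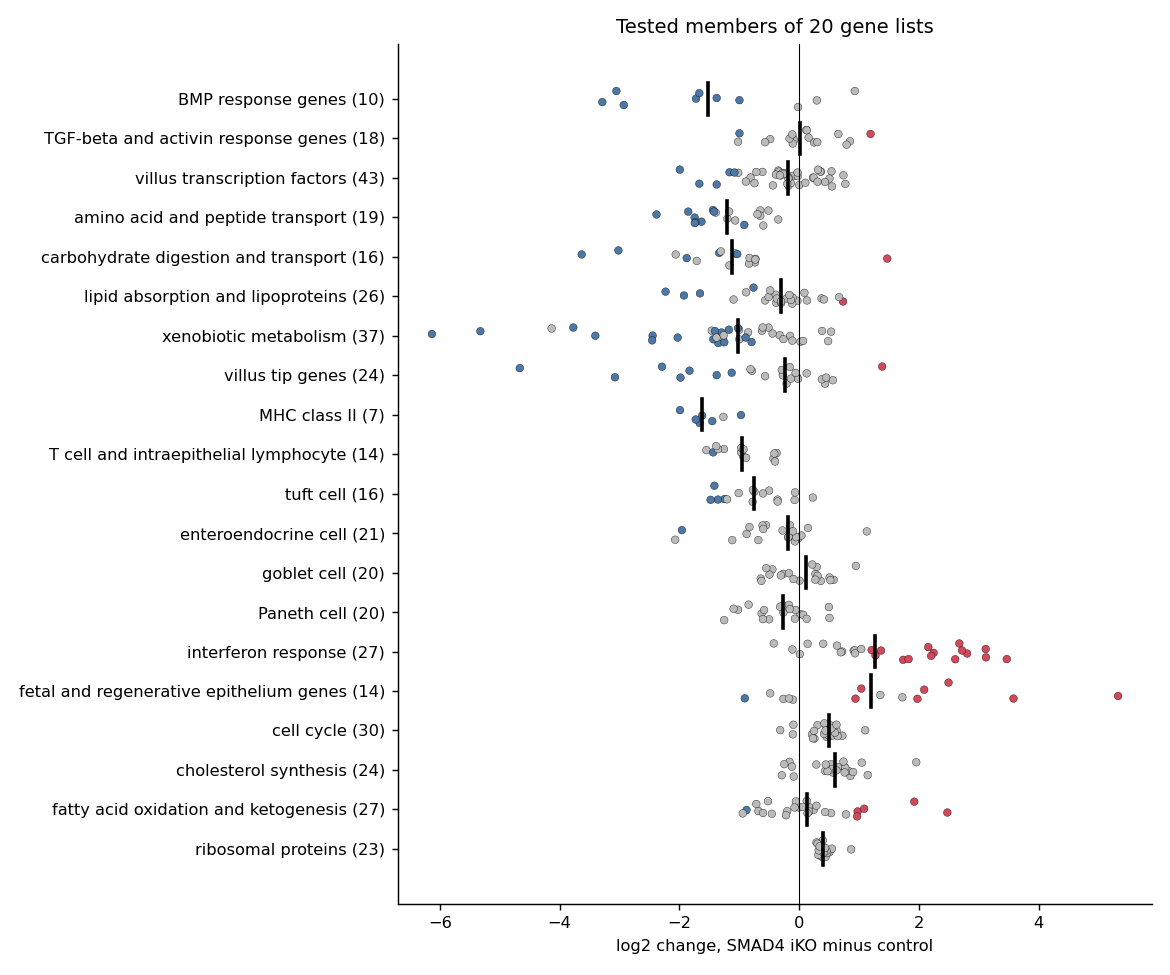
Each point is a tested gene of the list named at the left (number tested in brackets), placed by its log2 change, SMAD4 iKO minus control. Red points rose, blue points fell, grey points did not pass, and black bars mark list medians, from -1.62 for MHC class II to 1.27 for the interferon response.

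The 2 immune gene groups called here moved in opposite directions. Interferon response genes, which block the replication of viruses, rose: 15 of 27 tested passed upward, 0 fell, 23 were higher without overlap and the median was 1.27. Isg15, a ubiquitin-like protein, stood at 42.4 and 53.1 FPKM in the controls and 209 and 217 in the iKO libraries (log2 2.16 ± 0.15, limma adjusted p = 0.011). Usp18, the protease that removes ISG15, was at 7.18 and 7.28 and 61.2 and 46.8 (log2 2.80 ± 0.18), and Bst2, which tethers virus to the membrane, at 13.1 and 11.95 and 74.8 and 96.7 (log2 2.72 ± 0.17). The RNA-binding Ifit3 was at 6.099 and 6.93 and 47.9 and 40.7 (log2 2.67 ± 0.16) and Ifit2 at 0.575 and 1.30 and 13.8 and 16.01 (log2 3.47 ± 0.29). Oas2, a sensor of double-stranded RNA, was at 1.12 and 1.35 and 12.9 and 16.2 (log2 3.12 ± 0.20), and Ifi44 at 1.95 and 4.95 and 36.2 and 26.7 (log2 3.11 ± 0.41). In each of these 7 genes both iKO values were several times the higher control. Irf7, a transcription factor of the pathway, did not pass (log2 0.93 ± 0.16, adjusted p = 0.050). Without control 1 and control 2 the number that rose was 7 and 9, without iKO 1 and iKO 2 it was 0, and the median stayed between 1.15 and 1.37.

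Promoters of Isg15 and Ifit3 are shown because these genes are known to be driven through the interferon-stimulated response element, whose core was searched as GAAA, any 2 bases, then GAAA, on both strands, a choice made after the values had been seen. Again the 250 bases before the start are RefSeq sequence of build GRCm38.p6, with the core or its reverse complement in capitals, for Isg15 (chr4:156200819-156201068, minus strand) and Ifit3 (chr19:34583279-34583528, plus strand).
Isg15: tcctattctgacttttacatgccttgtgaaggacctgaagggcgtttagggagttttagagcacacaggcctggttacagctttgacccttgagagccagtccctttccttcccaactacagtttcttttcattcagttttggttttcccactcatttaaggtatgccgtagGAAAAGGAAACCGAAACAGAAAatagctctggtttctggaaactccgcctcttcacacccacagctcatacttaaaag
Ifit3: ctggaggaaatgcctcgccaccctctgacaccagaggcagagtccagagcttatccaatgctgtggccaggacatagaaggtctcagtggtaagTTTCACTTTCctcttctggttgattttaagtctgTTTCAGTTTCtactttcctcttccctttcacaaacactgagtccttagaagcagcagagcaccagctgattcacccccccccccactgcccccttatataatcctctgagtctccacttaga
In Isg15, 3 overlapping matches form the single run of capitals, the first beginning 78 bases before the start, and Ifit3 holds 2 separate matches. With windows that include the 50 bases after the start, the core was in 8 of the 11 interferon response genes that rose and had a promoter (72.7%), in 12 of the 19 tested ones with a promoter (63.2%), in 17 of the 113 genes that rose and had a promoter, in 5.1% of those that fell and in 4.0% of the 27025 genes.

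MHC class II genes, which epithelial cells use to present antigen to T helper cells, fell. All 7 tested were lower without overlap, 6 passed the test and the median was -1.62. Ciita, the coactivator on which class II transcription depends, stood at 12.1 and 11.3 FPKM in the controls and 4.21 and 2.36 in the iKO libraries (log2 -1.73 ± 0.27, limma adjusted p = 0.042). The chain genes H2-Ab1, at 804 and 916 and 319.5 and 229 FPKM (log2 -1.66 ± 0.20), and H2-Aa, at 912 and 989 and 313 and 182 (log2 -1.99 ± 0.27), fell with it. Cd74, the invariant chain, was at 2029 and 2436 and 996 and 662 (log2 -1.45 ± 0.23). The first iKO library was above the second in all 4. With any 1 of the 4 libraries left out no member passed, with medians from -1.91 to -1.24.

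Lymphocyte genes had lower values in the same libraries. All 14 tested markers of T cells and intraepithelial lymphocytes had a negative change, 12 were lower without overlap, 1 passed, and the median was -0.95, and -0.62 without iKO 1. Over all 18 listed members in the table, untested ones included, the summed FPKM was 238 and 218 in the controls and 70.3 and 118 in the iKO libraries. The member that fell was Gzmb, the granzyme of cytotoxic cells, from 16.9 and 14.7 to 4.69 and 6.44 FPKM (log2 -1.44 ± 0.20, limma adjusted p = 0.034). Gzma (log2 -1.55 ± 0.28, adjusted p = 0.059) and Ccl5 (log2 -1.36 ± 0.27, adjusted p = 0.071) did not pass. In RNA from a whole preparation, fewer cells of a type and less RNA per cell cannot be told apart. The part of lymphocyte number in the class II and interferon values was not tested, and the iKO library with the lower lymphocyte sum, replicate 1, was the one with the higher values of Ciita, H2-Ab1, H2-Aa and Cd74.

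**Figure D4:**
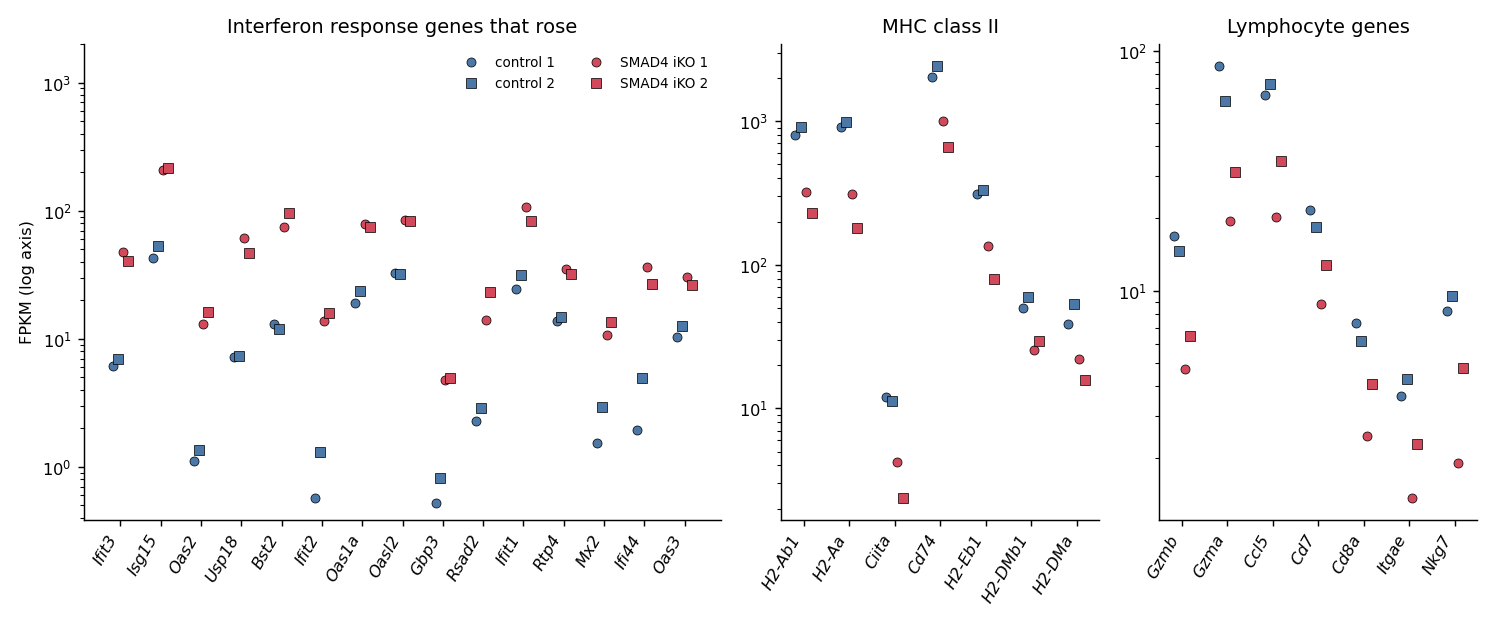
FPKM on log axes (y) in each library for the 15 interferon response genes that rose, the 7 tested MHC class II genes and the 7 lymphocyte genes of smallest adjusted p (x), with controls blue, SMAD4 iKO red, circles for replicate 1 and squares for replicate 2. Interferon genes are higher in both iKO libraries (Isg15 209 and 217 against 42.4 and 53.1), and class II genes lower (Cd74 996 and 662 against 2029 and 2436).

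The largest rises included genes of injured and fetal epithelium. Of 14 tested fetal and regenerative genes 7 rose and 1 fell, with a median of 1.19. With 1 FPKM required in all 4 libraries the median was 0.99. Anxa10, an annexin typical of stomach rather than intestine, stood at 0.697 and 0.0923 FPKM in the controls and 23.9 and 46.2 in the iKO libraries (log2 5.33 ± 0.46, limma adjusted p = 0.014), the largest rise of the comparison. It was tested only because the iKO libraries reached 1 FPKM, so only a rise could be counted for it. Ly6a, known as the stem cell antigen Sca-1, was at 0.908 and 1.72 and 14.1 and 29.95 (log2 3.58 ± 0.42), and Ly6e at 40.1 and 35.1 and 144 and 154 (log2 1.97 ± 0.14). Areg, a ligand of the EGF receptor, was at 7.25 and 9.25 and 40.1 and 58.5 (log2 2.49 ± 0.24). Krt19 (log2 1.04 ± 0.11), S100a6 (log2 2.09 ± 0.31) and Krt7 also rose, and Lgals3 fell (log2 -0.91 ± 0.12). Ly6a and Ly6e are themselves induced by interferon in many cells. Without control 1 and control 2 the number that rose was 2 and 2, and without iKO 1 and iKO 2 it was 0, while the median without the filter on low values was 0.48.

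Other members of the Ly6 family and membrane lipid enzymes stood among the largest rises. Ly6d was at 0.635 and 0.14 FPKM in the controls and 13.9 and 19.4 in the iKO libraries (log2 4.31 ± 0.34, limma adjusted p = 0.013). The neighbouring relatives Gml, at 3.75 and 4.90 and 62.5 and 33.6 (log2 3.27 ± 0.32), and Gml2, at 3.62 and 4.16 and 52.2 and 34.6 (log2 3.29 ± 0.23), had nearly equal values, and reads could be shared between such copies. Mboat2 and Mboat1, acyltransferases that remodel phospholipids, were at 0.533 and 0.223 and 3.30 and 1.04 FPKM in the controls and 15.3 and 12.8 and 14.01 and 18.7 in the iKO libraries (log2 4.07 ± 0.25 and 2.79 ± 0.45). All 5 were low in the controls. Of 32 tested adhesion and junction genes 3 rose and 2 fell. Lamb3, the beta chain of laminin-332, rose (log2 1.56 ± 0.17), while Lama3, its alpha chain, fell from 1.82 and 1.72 to 0.126 and 0.195 FPKM (log2 -1.78 ± 0.26). The pore-forming claudin Cldn2 rose from 57.00 and 26.7 to 172 and 169 FPKM (log2 2.11 ± 0.36), and Cdhr2, which links microvilli, fell (log2 -0.78 ± 0.12).

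Some genes that burn fat rose. Of 27 tested genes of fatty acid oxidation and ketogenesis 5 rose and 1 fell, with a median of 0.13 that was 0.06 without control 1 and -0.03 without iKO 1. Acot1, an acyl-CoA thioesterase, stood at 1.43 and 1.26 FPKM in the controls and 8.14 and 11.6 in the iKO libraries (log2 2.47 ± 0.23, limma adjusted p = 0.016). Cpt1a, the gate of mitochondrial fatty acid entry, was at 42.9 and 49.1 and 89.7 and 91.8 (log2 0.98 ± 0.13). Acadl rose (log2 0.97 ± 0.12), as did Acot2, and the peroxisomal thiolase Acaa1a fell (log2 -0.88 ± 0.13). None of 24 cholesterol synthesis genes passed, though 16 were higher without overlap, beside 29.1% of all tested genes. Their median was 0.59, and it was 0.31 without control 1 and 0.84 without control 2.

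Proliferation genes did not pass the test, with small positive values. Of 30 tested cell cycle genes 0 passed, 27 had a positive change and 23 were higher without overlap, with a median of 0.49. Rrm2, a subunit of ribonucleotide reductase, stood at 9.51 and 7.52 FPKM in the controls and 15.9 and 22.1 in the iKO libraries (log2 1.10 ± 0.22, limma adjusted p = 0.074). All 23 ribosomal protein genes were likewise higher without overlap, 0 passed, and their median was 0.39. Over all tested genes 29.1% were higher without overlap, and members of a list are not independent of each other. Of 18 tested p53 target and apoptosis genes, Ccng1 rose from 21.9 and 19.6 to 60.9 and 70.03 FPKM (log2 1.63 ± 0.15) and Plk2 from 0.769 and 0.48 to 3.43 and 5.37 (log2 2.11 ± 0.29), while Sesn1 fell (log2 -1.45 ± 0.20). Of the 18, 14 had a positive change and 12 were higher without overlap, beside 29.1% of all tested genes. Cdkn1a, the best-known p53 target, did not pass. Neither did any of 18 stem cell genes, 16 Wnt target genes, 17 immediate early and heat shock genes or 20 genes of ER stress and secretion, for which medians lay between -0.17 and 0.19. Without control 1 the 4 medians were 0.09, -0.03, 0.02 and 0.43 in that order, and without control 2 they were -0.35, -0.26, -0.52 and -0.20.

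Among the secretory lineages, tuft cell genes stood out. Of 16 tested 4 fell and 0 rose, 11 were lower without overlap, and the median was -0.76. Among those that fell, Rgs13 stood at 5.33 and 5.94 FPKM in the controls and 1.87 and 1.91 in the iKO libraries (log2 -1.36 ± 0.18, limma adjusted p = 0.031), Sh2d6 at 11.1 and 12.2 and 3.39 and 4.79 (log2 -1.42 ± 0.21), and Alox5ap, which serves leukotriene synthesis, at 5.86 and 6.87 and 2.50 and 2.27 (log2 -1.25 ± 0.18). Without any library in turn none of the 4 passed, and the list median moved between -1.30 with genes of at least 5 FPKM in 2 libraries and -0.43 with a pseudocount of 2. Of 21 tested enteroendocrine genes Sct, the hormone secretin, fell from 113 and 76.4 to 19.8 and 28.00 FPKM (log2 -1.96 ± 0.26, limma adjusted p = 0.031), with a list median of -0.19 that was -0.10 without control 1, -0.65 without control 2, -0.30 without iKO 1 and -0.34 without iKO 2. None of 20 goblet cell genes passed (median 0.11, and -0.05 without control 2), and none of 20 Paneth cell genes, whose median was -0.89 between the number 1 libraries and 0.15 between the number 2 libraries, 1.26 without control 1 and -2.31 without control 2.

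Antimicrobial genes of the villus bottom did not move together, with a median of 0.04 over 18 tested and of -0.14 without control 1. The lectins Reg3a, at 171 and 219.8 FPKM in the controls and 75.6 and 72.00 in the iKO libraries (log2 -1.39 ± 0.16), and Reg1, at 2802 and 2639.8 and 1247 and 1547 (log2 -0.97 ± 0.15), fell. Lypd8, which binds flagella and keeps bacteria off the epithelium, rose from 1734 and 2176 to 4465 and 4874 (log2 1.26 ± 0.15, limma adjusted p = 0.025). The other 15 tested members did not pass.

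The genes called in the SMAD4 comparison were then read in the 2 comparisons of the study most like it, libraries labelled SMAD1/5 iDKO at day 6 (3 against 3 controls) and SMAD1/4/5 iTKO at day 30 (3 against 5 controls). Both are Villin-CreERT2 deletions given tamoxifen, were deposited in tables normalised apart from the SMAD4 table, and share no library with it. Values therefore stand side by side with no test between them. Of the 5 controls of the iTKO comparison, 2 are labelled control (SMAD1/5) and 3 control (SMAD1/4/5). In the day 6 iDKO comparison 15.5% of tested genes were called higher and 8.26% lower, and in the iTKO comparison 9.13% and 8.95%. Of 131 genes that rose here and were tested in both, 98 also rose in iDKO, which is 74.8% of these and 6.05% of the 1621 iDKO rises. Of 239 that fell, 198 fell in iDKO, 82.8% of these and 22.9% of the 865 iDKO falls. In iTKO 96 of 139 rises (69.1%, and 9.13% of 1051) and 161 of 236 falls (68.2%, and 17.1% of 944) were shared. Across genes, which are not independent, Pearson's r of the log2 changes was 0.73 with iDKO over 10307 genes and 0.58 with iTKO over 10751.

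**Figure D5:**
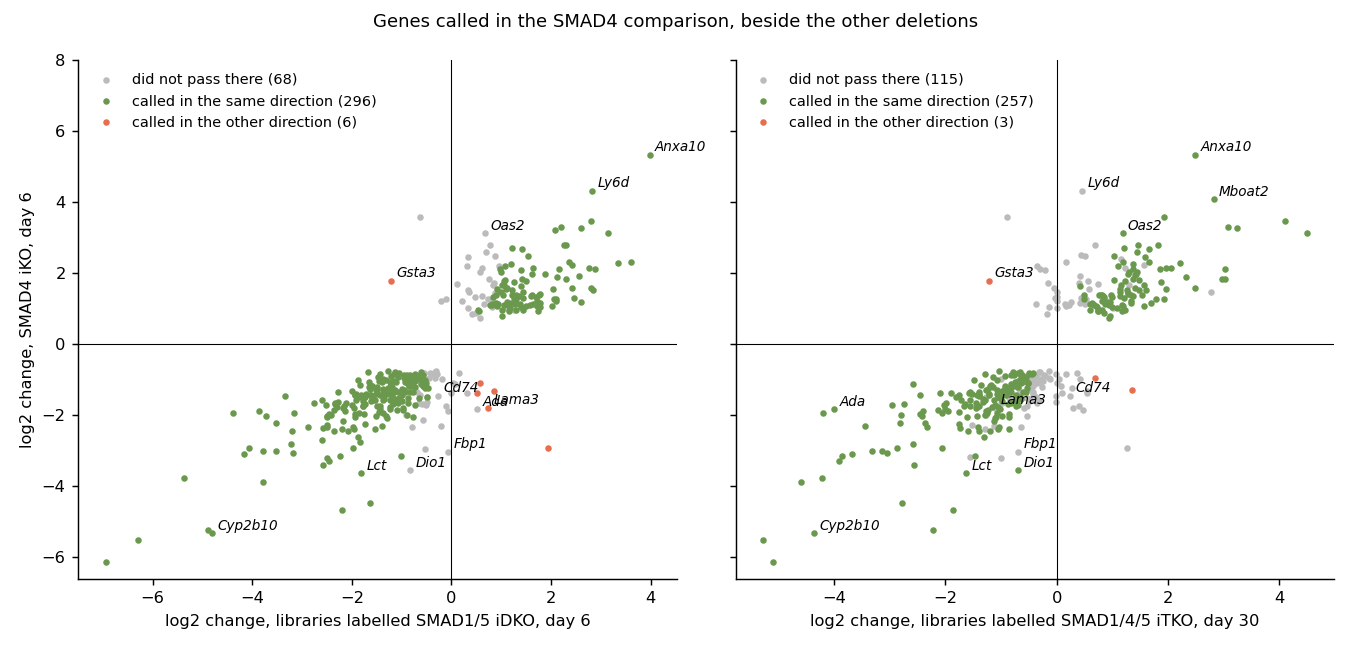
Each point is a gene called in the SMAD4 comparison, placed by its log2 change there (y axis) and in another comparison (x axes). The x axes show changes against controls of libraries labelled SMAD1/5 iDKO at day 6 or SMAD1/4/5 iTKO at day 30. The iTKO controls pool libraries labelled control (SMAD1/5) and control (SMAD1/4/5). Green points were called in the same direction, orange points in the other direction and grey points did not pass there, and most points lie at the lower left and upper right.

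The 7 BMP response genes that fell here also fell in iDKO and iTKO: Id1 changed by -1.72 here, -1.99 in iDKO and -2.96 in iTKO, Id3 by -2.93, -1.98 and -2.88, Smad6 by -3.29, -2.45 and -3.91, Smad7 by -1.0, -0.52 and -1.07, and Tbx3 by -1.67, -2.34 and -1.99, all past the test, as were Id2 and Klf4. Receptor and ligand changes went the same way, with Tgfbr2 at 1.31, 1.43 and 1.22 and Bmp3 at 1.84, 2.31 and 3.04. The TGF-beta list had 1 rise and 1 fall of 18 here, 8 and 2 of 17 in iDKO, and 6 and 1 of 18 in iTKO. Lists of detoxifying and transport genes had negative medians in all 3, -1.02, -1.40 and -0.74 for xenobiotic metabolism and -1.20, -1.49 and -0.79 for amino acid transport. The interferon list had 15 rises of 27 here, 9 of 27 in iDKO and 15 of 26 in iTKO.

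Some genes, picked out after their values were seen, did not follow or did not pass in iDKO or iTKO. Fbp1 changed by -3.02 here (adjusted p = 0.011), by -0.06 in iDKO and by -0.70 in iTKO, where it did not pass. Dio1 changed by -3.55 here, -0.82 in iDKO without passing, and -0.69 in iTKO, where it fell. Ada changed by -1.83 here, 0.52 in iDKO without passing and -4.00 in iTKO, where it fell, and Nt5e by -2.29, -0.21 and -3.44 with the same calls. The iDKO libraries are of day 6 and the iTKO libraries of day 30, so these comparisons differ in day as well as in the deleted genes. Whether Ada or Nt5e differs between tables was not tested. Of 7 MHC class II genes 6 fell here and 0 passed downward in iDKO and iTKO, where medians were -0.49 and -0.01. In iDKO all 6 had negative changes, from -0.91 (H2-Aa) to -0.11 (Ciita). In iTKO H2-Aa, H2-Ab1 and H2-DMb1 changed by -1.27, -1.01 and -0.99 without passing. There H2-Eb1 changed by -0.01, and Ciita and Cd74 by 0.41 and 0.24. Ly6d changed by 4.31, 2.83 and 0.46, the last without passing. Opposite calls were made for 6 genes here and in iDKO, and for 3 here and in iTKO. Pdlim2, Lama3, Slc23a4, Plbd1 and Mir7049 fell here and rose in iDKO, and Gsta3, a glutathione transferase, rose here (log2 1.79) and fell in iDKO (log2 -1.21). In iTKO Gsta3 fell as well (log2 -1.21), while Mexis (log2 -1.29 here and 1.35 there) and Slc30a10 (log2 -0.96 and 0.69) fell here and rose there.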

How the data were processed

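Messenger RNA of 2 SMAD4 iKO and 2 control libraries was analysed, and for comparison the day 6 SMAD1/5 and day 30 SMAD1/4/5 libraries. The submitters' processing notes list HISAT2 2.2.1 as the aligner and featureCounts 2.0.1 as the counter, and name builds GRCm39 and mm10 without their roles, so no coordinates come from the files. The strand setting is not given in the sources used here. The authors deposited FPKM values in separately normalised tables, summing to 609281 to 669581 per library here. Read depth cannot be recovered from this table, and no counting error is attached to its values.

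FPKM values were filtered at 1 in at least 2 libraries, 0.5 was added, and limma 3.58.1 (R 4.3.3) fitted the log2 values with a mean-variance trend, Benjamini-Hochberg adjustment over all 12202 genes and a threshold of 0.05. The smallest two-sided p of an exact permutation of 2 against 2 is 0.333, so no such test was made for single genes. The procedure was tested on simulated data. Symbols were matched to the reference for 17099 of 17112 rows. Figures used Python 3.11.15, pandas 2.3.3, numpy 2.4.6 and matplotlib 3.10.9.

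The comparison and the gene lists were chosen with earlier results of these data known. Genes were named by rule: Smad4, the 12 largest rises and 12 largest falls past the threshold without overlap and with a mean of at least 5 FPKM, up to 4 genes per list by smallest adjusted p, and the tested pathway members, of which not all are printed. Values of some genes are not reported here. These were chosen after their values were seen: Acaa1a, Acot2, Apoa4, Cdx2, Cldn2, Dpp4, Fabp1, Gata4, Irf7, Isg15, Khk, Krt7, Lgals3, Mxd1, S100a11, S100a6, Slc15a1, Slc2a2, Slc5a1, Slc6a19, Slc7a15, Treh and Vdr, the genes said in the text to be picked out so, and those of the closing observations other than Amy2a5 and Cxcl16. Alternatives were other pseudocounts and filters, median centring, quantile normalization, limma without the trend or with a robust prior, the replicate block, and each library left out. The number 1 or number 2 libraries alone were added after the data were seen.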

Additional observations from a re-analysis of the deposited data

How the results depend on the processing

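With 2 libraries a group, the counts of genes that rose and fell (156 and 261) moved most when a library was left out, to between 0 and 37 higher and between 2 and 39 lower. With no filter on low values 16985 genes were tested, and 98 were higher and 135 lower. With the replicate block they were 314 and 520. Labels do not say whether equal numbers are pairs, the correlation of the number 1 minus number 2 differences of the groups was 0.283, and 2 pairs cannot settle it. All other settings gave 130 to 193 higher and 186 to 312 lower. No called gene named in the text changed sign under any fit. Because the groups of called genes did not overlap, only median centring and quantile normalization could have changed their sign. Of 150 named genes, 7 that had not passed changed sign. Under median centring Acvr1 stood at -0.0012, Smad1 at -5.72e-05 and Tgfbr1 at -0.010, and under quantile normalization Acvr1 at -0.033, Tgfbr1 at -0.047 and Cdkn1a at 0.06. With a library left out Acvr1 ranged from -0.083 to 0.13, Acvr1b from -0.18 to 0.062, Acvr2b from -0.13 to 0.18, Bmpr2 from -0.11 to 0.48, Cdkn1a from -0.15 to 0.11, Smad1 from -0.15 to 0.20 and Tgfbr1 from -0.054 to 0.082, and the cause was not tested. Medians of 10 of the 26 lists quoted lay on both sides of 0: ER stress and secretion (-0.20 to 0.44), TGF-beta response (-0.15 to 0.13), Wnt targets (-0.29 to 0.058), fatty acid oxidation (-0.032 to 0.19), goblet cell (-0.093 to 0.29), antimicrobial genes (-0.19 to 0.20), Paneth cell (-2.31 to 1.26), SMADs and receptors (-0.11 to 0.051), immediate early and heat shock (-0.52 to 0.086) and stem cell genes (-0.35 to 0.087).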

Other observations

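The genes of this paragraph and the next, apart from Amy2a5 and Cxcl16, were chosen after their values were seen and stand for no gene group. Car9, a carbonic anhydrase of the cell surface, stood at 67.4 and 62.6 FPKM in the controls and 163 and 176 in the iKO libraries (log2 1.38 ± 0.13, limma adjusted p = 0.016). The glycolytic enzymes Hk2 (log2 1.00 ± 0.16) and Aldoa, at 345 and 358 and 629 and 597 FPKM (log2 0.80 ± 0.11), passed upward too, as did Fam162a (log2 1.39 ± 0.15) and the ER oxidoreductase Ero1a (log2 0.88 ± 0.13). In the libraries labelled SMAD1/5 iDKO at day 6 and SMAD1/4/5 iTKO at day 30, Car9 changed by 1.75 and 1.33, Aldoa by 1.03 and 0.96 and Fam162a by 1.30 and 0.77, all past the test there. Ero1a changed by 0.48 without passing and by 0.86, and Hk2 by 1.13 and 1.01 without passing in either.

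Some genes of actin-binding proteins rose and others fell. Gsn, gelsolin, which severs and caps filaments, stood at 10.7 and 10.8 FPKM in the controls and 56.2 and 54.9 in the iKO libraries (log2 2.31 ± 0.13, limma adjusted p = 0.011). Capg, a capping protein of the same family, was at 16.9 and 14.2 and 72.9 and 82.5 (log2 2.29 ± 0.16), and Tmsb10, a thymosin that binds actin monomers, at 442 and 590.1 and 1247 and 1344 (log2 1.34 ± 0.17). Pls1 (log2 -1.17 ± 0.17) and Espn (log2 -0.87 ± 0.13), which bundle the actin of microvilli, fell. H2-Q1, an MHC class I gene of a family with near-identical copies, was at 314 and 294 FPKM in the controls and 95.5 and 72.4 in the iKO libraries (log2 -1.86 ± 0.17, limma adjusted p = 0.016). Other class I genes passed in either direction. Of 3 tested pancreatic acinar genes, the amylase Amy2a5 fell, from 2.90 and 2.48 FPKM to 0 and 0.0288, and of 14 chemokine and inflammatory genes Cxcl16 alone passed, rising from 19.8 and 21.2 to 38.1 and 41.2 (log2 0.94 ± 0.13). In the groups of the SMAD4 table the samples number too few for the search for single outlying libraries that groups of 4 or more allow.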
